A study of Homo sapiens with 6 samples.

Results

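The genes described here are 38 genes of the core autophagy machinery and its cargo receptors, taken as a fixed list of symbols, out of 22580 genes tested. All 38 had enough counts to be tested, from 146.2 estimated counts in the weakest library of ATG10 to 53732 in the strongest library of SQSTM1. RNA was sequenced from A375, an established human melanoma cell line, in 3 untreated control cultures (replicates 1 to 3) and 3 cultures exposed for 24 h to hMGL, an engineered human enzyme that degrades methionine (replicates 4 to 6). The 6 cultures are described as independent, all come from the same cell line in the same serum-containing medium, and no dose of hMGL is given. Libraries held 50760266 to 59954677 estimated counts, and edgeR put the coefficient of variation among replicates at 0.074. Of the melanocyte lineage markers, SOX10 was at 417.4 ± 31.4 CPM (counts scaled to library size by TMM, SD, n = 3) and MITF at 43.8 ± 1.86 CPM in control cells, whereas the pigment genes PMEL, MLANA, TYRP1 and DCT were each under 1 CPM there and TYR had too few counts to be tested. Of the 7 tested markers of this lineage 3 rose in treated cells (PMEL 3.69-fold, DCT 1.90-fold and TYRP1 from 0.102 to 0.724 CPM, all from low levels) and 2 fell (SOX10 1.19-fold and S100B 6.61-fold, from 38.6 ± 0.830 CPM), and their sum was 477.3 to 540.0 CPM in control and 395.8 to 408.4 CPM in treated libraries. Summed over the tested markers, fibroblast genes were at 5.41 to 5.58 CPM in control and 2.53 to 2.86 CPM in treated libraries (2 of 4 fell), leukocyte genes at 6.68 to 7.78 and 2.35 to 2.95 CPM (LYZ fell and CD14 rose), and endothelial genes at 6.36 to 7.05 and 7.21 to 7.82 CPM (1 of 3 rose). The epithelial list summed to 358.9 to 379.1 and 345.2 to 353.5 CPM, nearly all KRT18 and KRT8, with EPCAM too low to be tested, as were COL3A1, CDH5, PTPRC and CD3E. The part of these markers in the results below was not tested.

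Autophagy encloses cytoplasm in a double membrane, the autophagosome, and delivers it to the lysosome. The ULK kinase complex starts the process, the phosphoinositide kinase PIK3C3 with BECN1 marks the membrane, and lipid carriers let it grow. A ubiquitin-like conjugation system then attaches small proteins of the ATG8 family (LC3 and GABARAP) to the membrane, where cargo receptors bind them. A shortage of amino acids is a classical trigger of the process, much of it through protein phosphorylation, which mRNA levels do not show.

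Treated cells had 5.93-fold more mRNA of MAP1LC3B, which encodes LC3B, and 2.93-fold and 2.52-fold more of ATG101 and ATG12, while GABARAP, ULK1 and ATG10 mRNA fell. Of the 38 genes, 21 rose, 10 fell and 7 did not pass an adjusted p of 0.05 in edgeR's quasi-likelihood test. The share past the threshold was 81.6%, against 69.4% of all genes tested and 78.3% of protein-coding genes (38% higher and 40.3% lower). The share that rose was 55.3% against 34.9% of all genes, and the share that fell was 26.3% against 34.5%. The members' median log2 fold change was 0.31, beside −0.015 over all genes. Most differences were small: 4 members (10.5%) changed at least 2-fold, all upward, against 27.2% of all genes (14.6% higher and 12.6% lower) and 26.5% of protein-coding genes. When a change of more than 1.5-fold was required, 10 members passed (26.3%) against 35.4% of all genes. The CPM of the 3 treated libraries lay wholly above or below those of the 3 control libraries for 32 members (84.2%) and for 73.3% of all genes. Fold changes are relative to the typical gene of the library, so the amount of RNA per cell is not addressed. In bulk RNA, fewer cells that express a gene and less of its RNA per cell cannot be told apart.

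**Figure D1:**
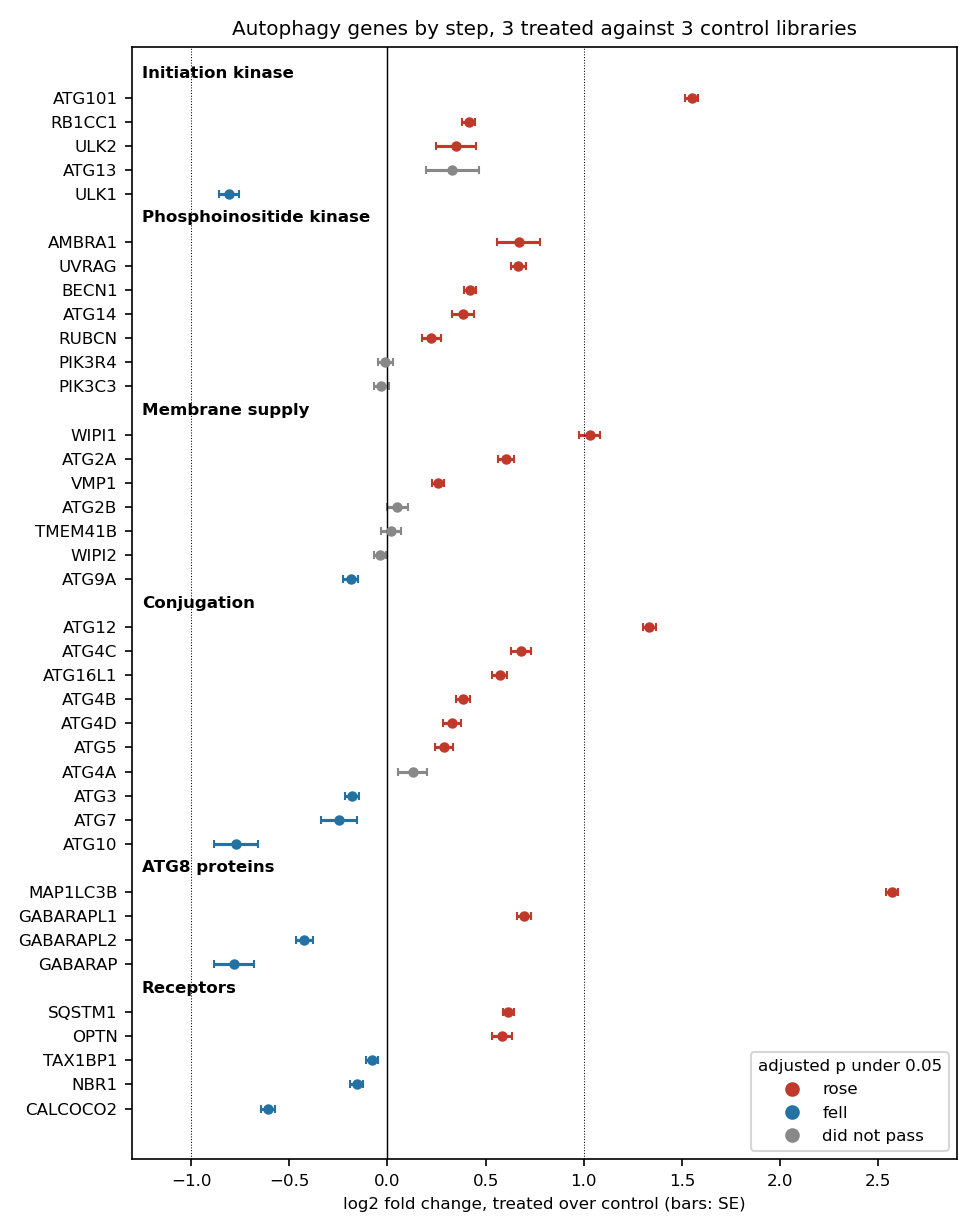
Log2 fold change of the 38 genes (treated over control, bars give the standard error), grouped by step and ordered within each step, with dotted lines at a 2-fold change. MAP1LC3B stands farthest to the right at 2.57, ATG101, ATG12 and WIPI1 also lie beyond a 2-fold rise, and the lowest gene is ULK1 at −0.81.

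Promoter windows (250 bases before to 50 after the annotated start, RefSeq, GRCh38.p14) were found for 35 of the 38 genes, 44 windows in all; RB1CC1, UVRAG and ATG4D had no entry. Both strands were searched for motifs of factors known to act on autophagy or stress genes. GTCACGTG, part of the CLEAR element of TFEB, TFE3 and MITF, was in 1 of 24 windows of genes that rose, 1 of 12 of genes that fell and 2.40% of 35116 windows of all genes. Its core CACGTG, which each of these matches contains, was in no further member window and in 7.26% of all windows. The antioxidant response element TGACNNNGC was in 8.33% of both the risers' and the fallers' windows and in 13.3% of all. The amino acid response element TGATGNAA was in none of the 44 member windows and in 3.62% of all, TGACGTCA (the CRE) was in 1 member window and 1.85% of all, and the forkhead element GTAAACA was in 1 member window and 3.42% of all. With counts this low the shares set no member group apart from the rest, and a match is letters, not a site in use.

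Among the member windows with a match, 5 stretches are shown 5′ to 3′ on the gene's strand, since they include the members with the largest and the second largest rise and a CLEAR-type match in a gene that rose (ATG14) and in one that fell (ATG3). Not shown are a second GTCACGTG of ATG3, 4 bases after its start, and the window of CALCOCO2, a gene that fell, with TGACNNNGC and GTAAACA 129 and 226 bases before the start. Capitals mark the motif, which in ATG14 is the reverse complement. The stretches run from 100 bases to 1 base before the start, and for ATG101 from 150 to 51 bases before it.
MAP1LC3B: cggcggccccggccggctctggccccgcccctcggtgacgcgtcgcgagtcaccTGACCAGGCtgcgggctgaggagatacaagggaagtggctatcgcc
ATG101: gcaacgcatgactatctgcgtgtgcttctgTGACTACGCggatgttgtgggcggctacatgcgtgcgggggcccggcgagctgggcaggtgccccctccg
GABARAPL1: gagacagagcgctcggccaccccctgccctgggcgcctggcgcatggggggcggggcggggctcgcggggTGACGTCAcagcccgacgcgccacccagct
ATG14: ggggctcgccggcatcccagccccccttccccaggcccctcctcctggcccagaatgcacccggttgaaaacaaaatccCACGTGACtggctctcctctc
ATG3: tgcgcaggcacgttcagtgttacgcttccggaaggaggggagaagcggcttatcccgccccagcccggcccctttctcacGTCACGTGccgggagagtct
They lie at chr16:87392236-87392335 (plus strand), chr12:52069828-52069927 (plus), chr12:10212777-10212876 (plus), chr14:55411831-55411930 (minus) and chr3:112561963-112562062 (minus).

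The 4 listed ATG8 genes split evenly by direction. Outside the list, and named here after their values were seen, MAP1LC3A rose 1.26-fold and MAP1LC3C did not pass. MAP1LC3A was at 6.89 ± 0.581 CPM in controls and 8.67 ± 0.741 CPM in treated libraries (SD, n = 3, edgeR adjusted p = 0.00347). MAP1LC3B (ENSG00000140941, chromosome 16, 87383995 to 87404779 in GRCh38) was at 37.4, 36.4 and 37.7 CPM in the control libraries and at 224.0, 220.1 and 217.3 CPM in the treated libraries. The groups lay far apart and each was tight, with a log2 fold change of 2.57 ± 0.032 (SE, edgeR adjusted p = 8.43e-20). The lowest value among the alternatives was 2.33. GABARAPL1, a close relative of GABARAP, was at 28.4, 28.8 and 28.1 CPM in controls and 46.3, 45.3 and 46.5 CPM in treated libraries. It rose 1.62-fold (log2 fold change 0.69 ± 0.036, edgeR adjusted p = 6.31e-12).

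The other 2 listed ATG8 genes fell. GABARAP was at 49.4, 54.0 and 53.9 CPM in controls and 26.7, 34.4 and 30.3 CPM in treated libraries. It was 1.72-fold lower (log2 fold change −0.78 ± 0.102, edgeR adjusted p = 0.00107), and its treated libraries were the most scattered of the 4 genes. A gene annotated on the same strand, ENSG00000262526, overlaps GABARAP and took 0.703 to 7.74 CPM in treated and 11.2 to 15.8 CPM in control libraries. Summed over both genes, the level was 63.8, 65.2 and 69.6 CPM in controls and 34.5, 35.1 and 36.1 CPM in treated libraries, lower in treated cells as for GABARAP alone, with the treated libraries closer together and the controls farther apart. GABARAPL2 was at 44.6, 43.5 and 46.8 CPM in controls and 35.4, 32.6 and 32.7 CPM in treated libraries, 1.34-fold lower (edgeR adjusted p = 7.36e-08). For all 4 genes the groups did not overlap.

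Levels of different genes can be set side by side only per length, as TPM, an abundance corrected for transcript length. In control libraries GABARAP held 41.5 ± 1.57% of the TPM of these 4 genes, GABARAPL2 35.8 ± 0.664%, MAP1LC3B 14.5 ± 1.15% and GABARAPL1 8.21 ± 0.389% (SD, n = 3). In treated libraries MAP1LC3B held 53.0 ± 0.717%, GABARAPL2 19.2 ± 0.924%, GABARAP 17.2 ± 1.88% and GABARAPL1 10.6 ± 0.332%. MAP1LC3B thus had the 3rd highest share of the 4 in controls and the highest in treated cells, while the difference between GABARAP and GABARAPL2 in treated cells was about as large as its spread. The summed TPM of these 4 genes was 140.3 to 150.1 in control and 201.9 to 233.2 in treated libraries. These shares and sums are descriptions, since 3 against 3 libraries cannot give an exact two-sided permutation p below 0.10.

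**Figure D2:**
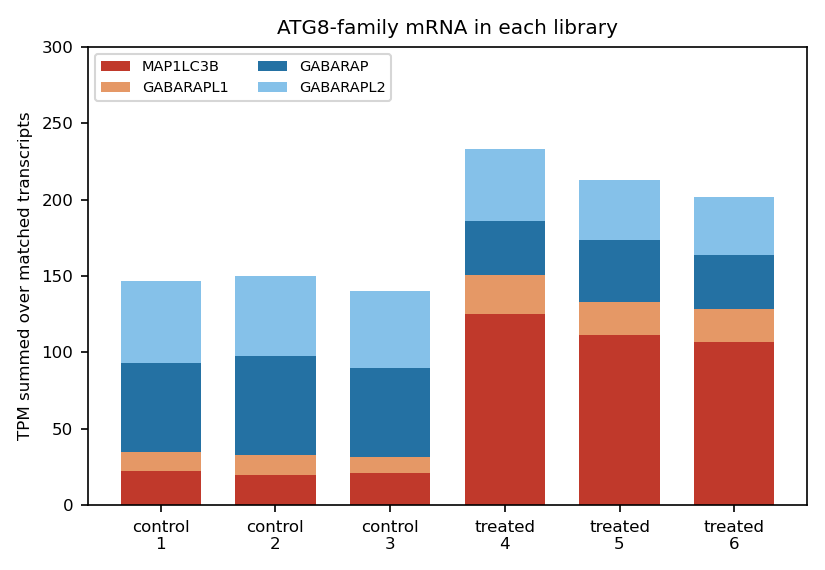
TPM of the 4 ATG8 genes in each of the 6 libraries, stacked from 0. The MAP1LC3B segment makes up 14.5% of the control bars and 53.0% of the treated bars on average, and the GABARAP and GABARAPL2 segments are shorter in the treated libraries.

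Reads can be shared between near-identical copies, which bears on this family. MAP1LC3B2, whose coding sequence is nearly that of MAP1LC3B, had 12.6 to 23.6 estimated counts per library, and the pseudogene MAP1LC3BP1 had 0 to 3. Against the 1849 to 11909 counts of MAP1LC3B these are small. FBXO31, a gene on the opposite strand whose exons overlap those of MAP1LC3B, averaged 1990 counts per library. MAP1LC3B averaged 6579 over all libraries, 1966 in controls and 11192 in treated libraries. The part of FBXO31 in the MAP1LC3B value was not tested. An entry named GABARAPL3, a near copy of GABARAPL1, had 0 to 2 counts in control and 41.5 to 46.3 in treated libraries, against 1464 to 2459 for GABARAPL1. Of the 9 annotated transcripts of MAP1LC3B 5 were in the files. Its main transcript, MAP1LC3B-201, was at 15.8, 16.0 and 14.0 TPM in controls and 110.3, 97.7 and 94.0 TPM in treated libraries, and carried 72.5% of the gene's TPM in controls and 87.9% in treated cells.

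In the initiation complex 3 of 5 genes rose, 1 fell and 1 did not pass. ATG101 (ENSG00000123395, chromosome 12, 52069246 to 52077494), which stabilises ATG13 in the complex, was at 112.6, 104.4 and 111.8 CPM in controls and 327.7, 320.4 and 315.0 CPM in treated libraries. Every treated library was above every control, with a log2 fold change of 1.55 ± 0.033 (edgeR adjusted p = 5.85e-17). The catalytic kinase ULK1 moved the other way, from 25.8 ± 0.922 to 14.8 ± 0.302 CPM (SD, n = 3), 1.75-fold lower (edgeR adjusted p = 9.14e-11). Its paralogue ULK2, at 3.76 ± 0.196 CPM in controls, rose 1.27-fold, and the scaffold RB1CC1 (FIP200) rose 1.33-fold. The rise of ULK2 did not pass with an offset for effective length (adjusted p = 0.0928 in edgeR) or in limma on log2(TPM + 1) (0.0700). ATG13 was at 79.4, 58.0 and 65.0 CPM in controls and 80.8, 84.5 and 89.1 CPM in treated libraries. Control replicate 1 was close to the treated libraries, and the gene did not pass (log2 fold change 0.33, edgeR adjusted p = 0.0938). Without that library its log2 fold change was 0.47 with an edgeR adjusted p of 5.09e-05.

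Among the 7 genes of the phosphoinositide kinase complexes and their regulators, 5 rose and none fell. The catalytic subunit PIK3C3 (VPS34) and the regulatory subunit PIK3R4 (VPS15) did not pass, at 47.2 ± 0.820 and 46.2 ± 1.17 CPM and at 65.0 ± 2.23 and 64.5 ± 1.76 CPM. The members that rose were the scaffold BECN1 (1.34-fold), ATG14 (1.31-fold), which directs the complex to autophagosome formation, UVRAG (1.59-fold) of the endosomal complex, AMBRA1 (1.59-fold), which binds BECN1, and RUBCN (1.17-fold), an inhibitor of the UVRAG complex. The exons of BECN1 overlap those of PSME3 on the other strand, at 8408 counts per library on average against 6318 for BECN1. RUBCN had a log2 fold change of 0.22, which was −0.0081 with an offset for effective length (edgeR adjusted p = 0.929). FYTTD1, a gene on the opposite strand whose exons overlap those of RUBCN, averaged 3282 counts per library against 1109 for RUBCN, and the strand setting of the counting was not given in the sources used here.

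Of 7 genes that supply or shape the growing membrane, 3 rose, 1 fell and 3 did not pass. WIPI1 (ENSG00000070540, chromosome 17, 68420948 to 68457513), which binds the lipid made by PIK3C3, was at 13.6, 12.5 and 14.3 CPM in controls and 26.8, 28.4 and 27.1 CPM in treated libraries. It rose 2.04-fold with no overlap of the groups (edgeR adjusted p = 1.26e-11). Its relative WIPI2, which recruits ATG16L1, was at 90.7 ± 2.32 and 88.4 ± 0.589 CPM and did not pass. The lipid transfer protein ATG2A rose 1.52-fold, while ATG2B, with the same activity, was at 32.6 ± 2.42 and 33.8 ± 1.63 CPM. The scramblase VMP1 rose 1.19-fold, and the related TMEM41B was at 18.9 ± 0.383 and 19.1 ± 0.585 CPM. ATG9A, the scramblase of the seed vesicles, was 1.14-fold lower (log2 fold change −0.19). The value for ATG9A was −0.04 in limma on log2(TPM + 1), where it did not pass (adjusted p = 0.778).

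**Figure D3:**
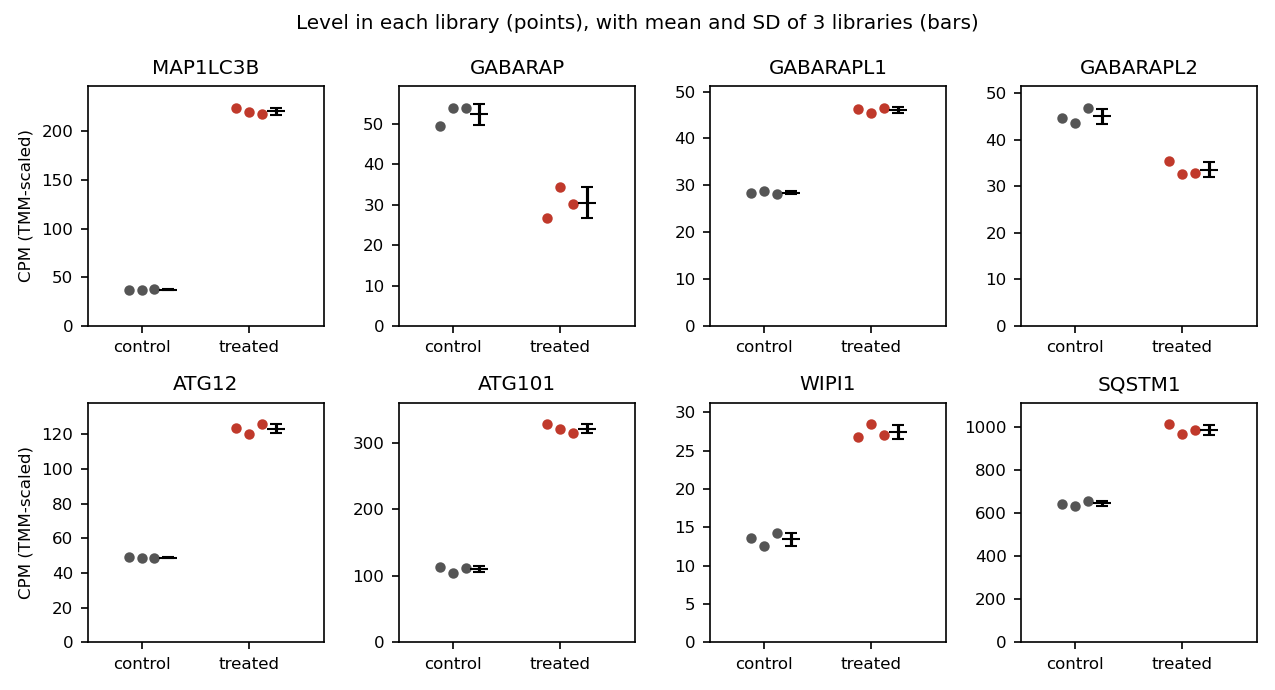
CPM of 8 genes in each library, with axes that start at 0 and bars for the mean and SD of 3 libraries. No group overlaps the other in any panel, and GABARAP and GABARAPL2 are the panels with lower treated libraries.

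In the conjugation system 6 of 10 genes rose, 3 fell and 1 did not pass. ATG12 (ENSG00000145782, chromosome 5, 115828200 to 115841858), the ubiquitin-like protein that is joined to ATG5, was at 49.5, 48.5 and 48.8 CPM in controls and 123.5, 120.5 and 125.8 CPM in treated libraries. AP3S1 on the opposite strand shares exonic sequence with it and averaged 5210 counts per library against 4421 for ATG12. The groups were tight and apart for ATG12 (log2 fold change 1.33 ± 0.033, edgeR adjusted p = 3.13e-16). Its partners rose less, ATG5 1.22-fold and ATG16L1, which directs the conjugate to the membrane, 1.49-fold. The enzymes that carry out the conjugation were the 3 that fell. ATG10, the E2 enzyme that joins ATG12 to ATG5, went from 5.87 ± 0.463 to 3.44 ± 0.395 CPM, 1.71-fold lower (edgeR adjusted p = 7.55e-06). ATG3, the E2 enzyme for the ATG8 proteins, was 1.13-fold lower, a call that was lost in limma on log2(TPM + 1) (adjusted p = 0.232). ATG7, the E1 enzyme of both reactions, was at 12.4, 10.99 and 11.2 CPM in controls and 8.63, 11.2 and 9.31 CPM in treated libraries, and the groups overlapped. Its fall (log2 fold change −0.25, edgeR adjusted p = 0.0244) did not pass without control replicate 1 (0.115), treated replicate 4 (0.192) or treated replicate 6 (0.135), nor in limma on log2(TPM + 1) (adjusted p = 0.547).

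RPS23, a ribosomal protein gene on the opposite strand, overlaps exons of ATG10 and averaged 28672 counts per library against 243.2 for ATG10. Its part in the ATG10 value was not tested. The ATG4 proteases, which trim the ATG8 proteins and later release them from the membrane, rose with 1 exception. ATG4C rose from 15.4 ± 0.606 to 24.6 ± 0.342 CPM, ATG4B 1.31-fold and ATG4D 1.26-fold, while ATG4A was at 9.17 ± 0.284 and 10.0 ± 0.630 CPM and did not pass (edgeR adjusted p = 0.133). KRI1, on the strand opposite ATG4D and overlapping its exons, averaged 7496 counts per library against 1283 for ATG4D. Likewise on the opposite strand, VGLL4 overlaps exons of ATG7 and averaged 2667 counts against 550.8, and THAP4 overlaps exons of ATG4B and averaged 3130 against 2492. The part of these genes in the member values was not tested. For ATG4D the log2 fold change of 0.33 was −0.10 when only its protein-coding transcripts were summed (edgeR adjusted p = 0.849).

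Of the 5 cargo receptors 2 rose and 3 fell. SQSTM1 (ENSG00000161011, chromosome 5, 179806398 to 179838078), which encodes p62 and links ubiquitinated cargo to LC3, had by CPM and by TPM the highest level of the receptors. It was at 642.7, 633.0 and 656.1 CPM in controls and 1010.7, 965.1 and 983.0 CPM in treated libraries. It rose 1.53-fold (log2 fold change 0.62 ± 0.028, edgeR adjusted p = 1.40e-12), and the groups did not overlap. OPTN (optineurin), a receptor for mitochondria and bacteria, rose from 16.0 ± 0.461 to 24.0 ± 0.642 CPM (log2 fold change 0.58). CALCOCO2 (NDP52), with a similar role, was at 80.1, 75.5 and 77.2 CPM in controls and 50.7, 50.5 and 51.6 CPM in treated libraries, 1.52-fold lower (edgeR adjusted p = 4.01e-11). NBR1, which works with SQSTM1, and TAX1BP1 were 1.11-fold and 1.06-fold lower. Neither of these falls passed in limma on log2(TPM + 1), where the log2 fold changes were 0.03 and 0.01. TAX1BP1 also did not pass in DESeq2 (adjusted p = 0.0908) or without any 1 library other than control replicate 2, and its edgeR adjusted p of 0.0404 was the weakest of the 31 calls.

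By TPM, SQSTM1 held 47.4 ± 0.722% of the mRNA of the 5 receptors in controls and 62.7 ± 1.28% in treated libraries (SD, n = 3). CALCOCO2 held 20.0 ± 0.698% and 10.5 ± 0.178%, and TAX1BP1 21.7 ± 1.12% and 17.1 ± 0.675%. NBR1 and OPTN held under 10% each in both groups.

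Gene sums can hide shifts between transcripts. In 9 of the 38 genes less than 50% of the control TPM lay on transcripts annotated as protein-coding, as in 22.4% of the protein-coding genes tested, so this does not set the members apart. By counts, which give short transcripts less weight than TPM does, 2 genes were under 50%, ATG4B and ATG4D, against 12.3% of the protein-coding genes tested. ATG3 was among the 9 by TPM, with 62.7% of its control TPM on the retained-intron transcript ATG3-203. TAX1BP1 had 54.4% on TAX1BP1-204, annotated for nonsense-mediated decay. Counted over protein-coding transcripts, ATG3 ranked 12th of the 38 genes in control cells rather than 2nd, and ATG101 and MAP1LC3B ranked 2nd and 3rd in treated cells, after SQSTM1 at 195.5 ± 18.0 TPM (SD, n = 3). In that count MAP1LC3B was at 20.0 ± 1.61 TPM in controls, rank 11, and 109.1 ± 8.61 TPM in treated cells.

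The protein-coding share of TPM differed without overlap between the groups in 8 genes (21.1%), lower in treated cells in 5 and higher in 3, against 26.1% of the protein-coding genes tested. By counts it did so in 12 members (31.6%) against 28.2%, so on neither scale were the members far from the background. By TPM, BECN1 had the widest fall of these 8, from 72.4 ± 2.87% to 61.1 ± 1.96% (SD, n = 3), and by counts it went from 83.3 ± 1.83% to 70.7 ± 0.703%, with its retained-intron transcript BECN1-204 at 3.88 to 5.63 TPM in controls and 12.1 to 14.3 TPM in treated libraries. Counted over protein-coding transcripts alone, the log2 fold change of BECN1 was 0.21 rather than 0.42. SQSTM1 went from 80.3 ± 2.76% to 74.7 ± 1.55% and OPTN from 75.7 ± 1.05% to 70.7 ± 1.94%. By counts OPTN went from 93.7 ± 0.528% to 89.7 ± 0.558%, while the groups overlapped for SQSTM1. GABARAPL1 went from 93.5 ± 1.53% to 88.6 ± 1.55% by TPM and from 91.6 ± 0.558% to 84.5 ± 2.43% by counts. Of the 12 members apart by counts, 7 were lower and 5 higher in treated cells. The widest fall by counts was that of ATG4A, from 76.3 ± 3.71% to 62.2 ± 10.2%, whose groups overlapped by TPM. RUBCN moved the other way, from 77.5 ± 1.15% to 90.1 ± 3.76% by TPM but only from 96.9 ± 0.407% to 99.1 ± 0.624% by counts. ATG16L1 went from 28.8 ± 1.60% to 30.9 ± 0.489% by TPM and from 54.9 ± 4.59% to 67.0 ± 1.02% by counts. In ATG12 the transcript ATG12-201, annotated for nonsense-mediated decay, was at 2.23 ± 0.182 TPM in controls and 12.7 ± 1.49 TPM in treated libraries, beside the protein-coding ATG12-208 at 7.86 to 9.09 and 21.7 to 24.2 TPM. The OPTN transcripts OPTN-202 and OPTN-208 were at 0.136 TPM or less in every control library and at 1.02 TPM or more in every treated library, whereas OPTN-205 was at 2.08 ± 0.183 and 1.85 ± 0.0901 TPM. How the software divided reads between such transcripts is not measurable from these files, and none of these shares was tested.

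**Figure D4:**
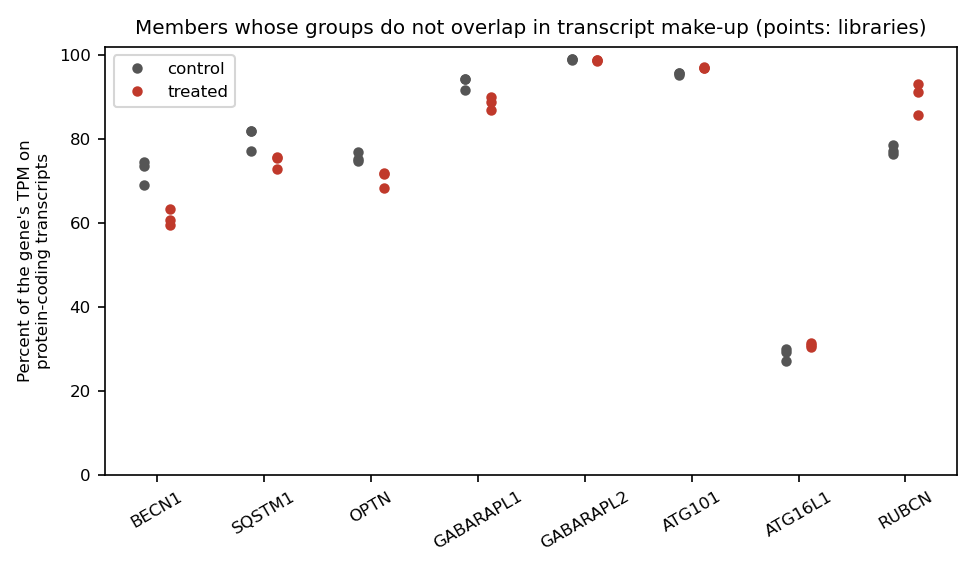
Percent of each gene's TPM on protein-coding transcripts in single libraries, for the 8 genes whose groups did not overlap. BECN1 shows the widest fall (72.4% to 61.1%), RUBCN the widest rise (77.5% to 90.1%, against 96.9% to 99.1% by counts), and GABARAPL2 and ATG101 differ by under 2 percentage points.

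Beyond the 38 genes, 50 further autophagy genes listed from general knowledge gave 48 that could be tested, of which 24 rose, 14 fell and 10 did not pass (79.2% past the threshold, against 69.4% of all genes and 78.3% of protein-coding genes). Among 13 tested core paralogues and cofactors 8 rose and 2 fell. NRBF2, a subunit of the ATG14 complex, rose 3.04-fold to 44.9 ± 1.62 CPM (SD, n = 3), WDR45B, a relative of the WIPI proteins, rose 2.33-fold, and the tether EPG5 rose 2.16-fold. EI24 was 1.40-fold and ATG16L2 1.56-fold lower.

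Of 22 tested receptors for organelles and their partners 10 rose and 8 fell. The endoplasmic reticulum receptors differed among themselves: CCPG1 rose 1.90-fold and SEC62 1.52-fold, while RTN3 was 2.08-fold lower. The glycogen receptor STBD1 rose 2.71-fold. The mitochondrial receptors BNIP3 and PHB2 were 2.40-fold and 1.79-fold lower. Of others for mitochondria, named here after their values were seen, BNIP3L and FKBP8 fell by 0.77 and 0.49 on the log2 scale, while FUNDC1 and BCL2L13 rose 1.15-fold and 1.12-fold. Of 13 genes for fusion with the lysosome 6 rose and 4 fell. The adaptor PLEKHM1 rose 2.78-fold. In the HOPS tethering complex VPS18 rose 2.43-fold and VPS11 1.36-fold, whereas VPS16 and VPS39 were 2.45-fold and 1.63-fold lower. Of its other subunits, named here after their values were seen, VPS33A was 1.09-fold lower with overlapping groups and VPS41 did not pass. SNAP29, a fusion SNARE, was 1.14-fold lower. With library totals in place of TMM the 3 lists gave 9 and 2, 10 and 6, and 6 and 3 genes higher and lower.

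**Figure D5:**
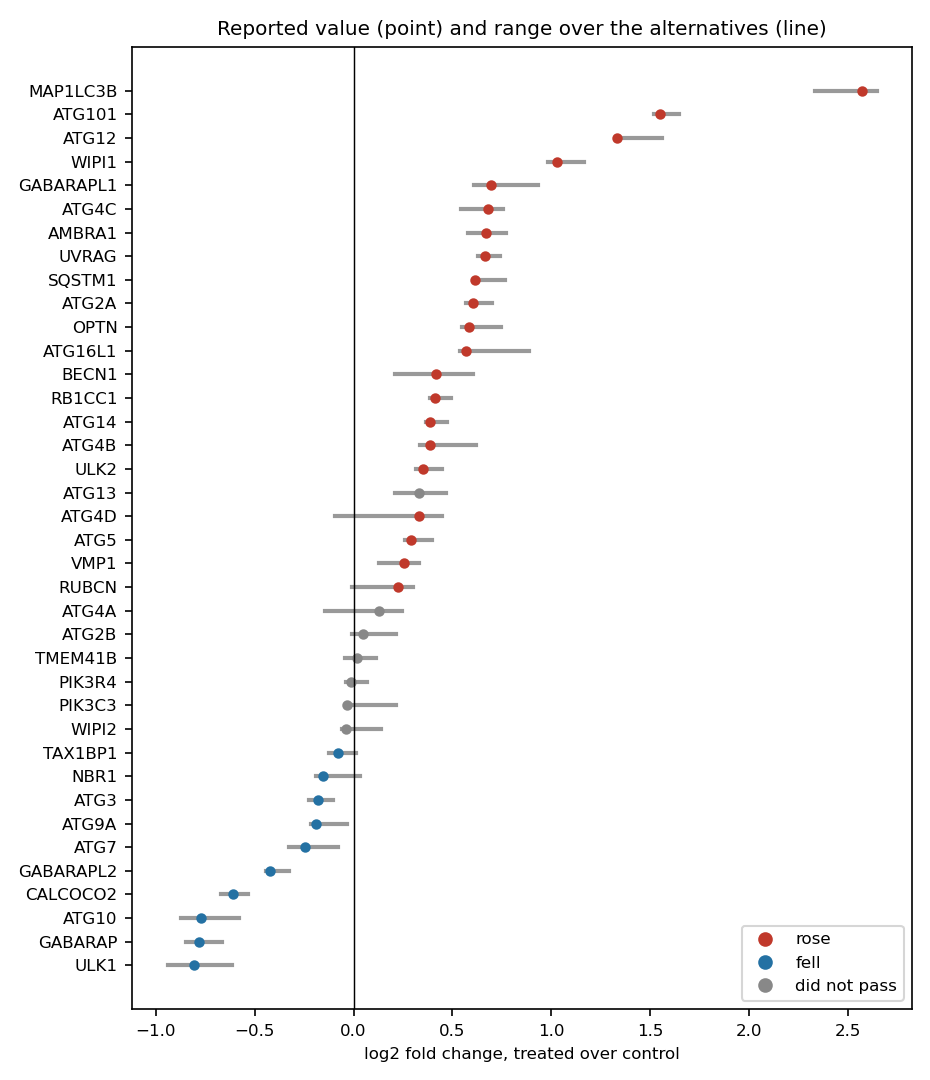
Log2 fold change of each of the 38 genes as reported (point) and its range over 16 alternative analyses (line). The range stays above 0 for MAP1LC3B, ATG101, ATG12 and WIPI1, stays below 0 for ULK1, GABARAP, ATG10, CALCOCO2 and GABARAPL2, and crosses 0 among called genes for ATG4D, RUBCN, TAX1BP1 and NBR1.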

How the data were processed

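The deposited tables give, per the file headers, estimated counts (expected counts, not scaled between libraries), TPM, length and effective length per transcript. Kallisto 0.45.0 and DESeq2 1.30.0 are listed, per the submitters' processing notes, with no role. The index release, genome build and strand setting are not given in the sources used here. Of 244939 transcripts, 203436 were matched by identifier to GENCODE 29 (GRCh38) and summed to genes; the others held 4.86% to 5.13% of counts and were left out, so a gene's level can be partial. In 25.6% to 27.1% of transcripts the deposited effective length was above the transcript length, which affects TPM.

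Gene sums were rounded, filtered (filterByExpr, minimum count 10, total 15), scaled by TMM and compared with the two-sided quasi-likelihood F test of edgeR 4.0.16, with Benjamini-Hochberg over all genes. Standard errors are the absolute log2 fold change over the square root of F. The steps were also run on simulated counts in which few genes changed, evenly up and down, with the same variation among replicates for every gene. In these data 69.4% of all genes tested passed, so the simulation does not show how the scaling and calls behave here. The groups share no replicate numbers, so no pairing was used. Alternatives used DESeq2 1.42.0, limma 3.58.1 on log2(TPM + 1) or log2(TPM + 0.1), other scalings and filters, a length offset, protein-coding transcripts alone, a required 1.5-fold change, and each library left out. Every member was named; those changed at least 2-fold, the ATG8 genes and SQSTM1 were to be given per library, and from the other autophagy lists up to 3 risers and 3 fallers with the lowest adjusted p. Members, lists and motifs were chosen with earlier results of these data known.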

Additional observations from a re-analysis of the deposited data

How the results depend on the processing

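Over 16 alternatives, 14 of the 38 genes kept both direction and call in every one. The alternatives include the required 1.5-fold change, which asks a stricter question than the main test and is not another processing. Only 10 members passed it, and the other called members lost the call there. Some of those had estimated changes above 1.5-fold: AMBRA1 (1.59-fold), SQSTM1 (1.53-fold), ATG2A (1.52-fold) and CALCOCO2 (1.52-fold lower). The log2 fold change of AMBRA1 had an SE of 0.109, while UVRAG passed at 1.59-fold with an SE of 0.039. The lost calls counted next include all those lost under this requirement. Of 608 gene-by-alternative values, 544 kept direction and call, 50 lost the call, 8 gained it and 6 turned direction. With a required change of more than 1.5-fold, 4223 genes rose and 3764 fell, and 7 members rose and 3 fell; these were ATG101, ATG12, ATG4C, GABARAPL1, MAP1LC3B, UVRAG and WIPI1, and ATG10, GABARAP and ULK1. The number of members that fell went from 10 to 6 with an offset for effective length and to 5 in limma on log2 TPM with either 1 or 0.1 added. The members that rose numbered 20 to 24 under every alternative except the 1.5-fold requirement. Leaving out 1 library gave 21 to 22 members that rose and 8 to 10 that fell. Direction turned for RUBCN with the length offset (−0.00807), for ATG4D with protein-coding transcripts alone (−0.0958), and in limma for NBR1 (0.0340 with 1 added, 0.0351 with 0.1 added) and TAX1BP1 (0.0139 and 0.0141). The cause was not tested. Depth limits ULK2 and ATG10 most, at 181.1 to 256.8 and 146.2 to 350.1 counts per library, and counting intervals leave out the error of sharing reads between transcripts.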
